A study of Homo sapiens with 12 samples.

Results

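Of 8 measured genes that the transcription factor p53 switches on, GADD45A was the 1 that rose past the threshold when a line of human Müller glia carrying a long CTG repeat was given doxycycline. The list of 9 genes holds CDKN1A, MDM2, AEN, SESN1, TP53I3, BBC3, BAX, GADD45A and ZMAT3. They were chosen by name, as textbook targets of p53, with earlier results of these data known. Of the 9 genes, 8 were measured, each by 1 probe set that carries its symbol alone, out of 33616 genes read by 36176 such probe sets. The probe set of BBC3, which encodes the death-promoting protein PUMA, carries a second symbol and is given no value. The gene for p53 itself was not analysed here.

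p53 is held at a low level by MDM2, a ubiquitin ligase that marks it for destruction, and MDM2 is itself a target, so the pathway carries its own brake. When DNA is damaged or a cell is otherwise stressed, p53 is freed from MDM2 and activates genes that stop the cell cycle (CDKN1A, GADD45A), that promote death of the cell (BAX, BBC3, AEN), that handle oxidants and nutrients (SESN1, TP53I3) and that bind RNA (ZMAT3). Several of these genes, GADD45A among them, also answer to stress through other transcription factors. Müller glia are the supporting cells of the retina, which feed and buffer its neurons.

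MIO-M1 is an established human Müller glia line. In the study it was made to carry a Tet3G transactivator under a CMV promoter, 1 clone was selected, and a doxycycline-responsive minigene with the last exons of DMPK, the gene expanded in myotonic dystrophy type 1, was added. MIO-M1-CTG(648) carries 648 CTG repeats in that minigene and MIO-M1-CTG(0) carries none. Both lines were selected with G418 and puromycin and afterwards grown in serum free of tetracycline. Each was assayed without doxycycline (non-induced) and after 8 days in 1 μg/ml of it (Dox-induced), with 3 arrays for each of the 4 groups. Each repeat length is represented by 1 line, so the repeat and the place where the minigene inserted cannot be told apart between lines. The arrays are described as biological replicates, and nothing says how their cultures were separated, so a p-value here speaks only of the spread among these arrays, which may be technical. The RNA came from whole cultures, in which fewer cells that express a gene and less RNA per cell cannot be told apart.

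All values are log2 signals of Clariom D arrays, in which 1 unit is a doubling. Array medians lay between 4.24 and 4.32. Contrast A sets Dox-induced against non-induced MIO-M1-CTG(648), and contrast B sets Dox-induced MIO-M1-CTG(648) against Dox-induced MIO-M1-CTG(0). Further contrasts were Dox in MIO-M1-CTG(0), the lines without Dox (MIO-M1-CTG(648) against MIO-M1-CTG(0)), and the interaction, which is the Dox response of MIO-M1-CTG(648) minus that of MIO-M1-CTG(0). These contrasts share groups of arrays and are not independent of each other. A probe set was called when its log2 fold change exceeded 0.5 in either direction and its unadjusted p in the limma fit was below 0.005. Adjusted p-values follow Benjamini and Hochberg over all 36176 probe sets. Markers of Müller glia were mixed. GLUL, SOX9 and VIM were bright, with group means of 14.49 to 14.81 for GLUL, whereas RLBP1, which carries retinoid in Müller glia, lay between 2.70 and 2.89. In every group 5 of the 12 measured markers had a mean under 5, namely RLBP1, AQP4, KCNJ10, GFAP and NES. Of 12 measured Müller glia markers, 1 was called in contrast A (SLC1A3, a glutamate transporter, at 0.71) and none with Dox in MIO-M1-CTG(0), where 1 had an unadjusted p under 0.05. In MIO-M1-CTG(0) SLC1A3 also rose, with group means of 12.93 without and 13.49 with Dox, a log2 fold change of 0.55 that was not called. Its call in contrast A was lost at an adjusted p under 0.05. Between the non-induced lines 5 of the 12 markers were called and in contrast B 4, beside 11.7% of all probe sets in each. The share of all probe sets called was 2.42% in contrast A and 1.18% with Dox in MIO-M1-CTG(0). SLC1A3 was lower in MIO-M1-CTG(648) (-1.92 and -1.77), and PAX6 (0.70 and 1.10), CD44 (0.68 and 1.19) and SOX2 (0.72 and 0.86) were higher, as was SOX9 without Dox (0.51), named after its value was seen. Without Dox the calls of CD44 and SOX2 each ended in 4 of the 12 fits that left out 1 array. CD44 has 2 probe sets, and both of its calls ended when these were averaged. The summed signal of the 12 markers, on the log2 scale, was 18.00 to 18.11 in non-induced and 17.78 to 17.92 in Dox-induced MIO-M1-CTG(648). In MIO-M1-CTG(0) it was 18.08 to 18.13 without and 17.98 to 18.08 with Dox. The Dox-induced MIO-M1-CTG(648) arrays thus lay lowest. The sum adds signals before the log is taken, so the brightest markers weigh most in it. VIM, the brightest, had group means of 17.44 without and 17.15 with Dox in MIO-M1-CTG(648). Of the 12 markers, 5 had a log2 fold change above 0 in contrast A. The part of this sum in the p53 target values was not tested. The files do not show which parts of DMPK its probe set reads, nor whether the minigene is among them, and it had group means of 7.95 and 8.54 in MIO-M1-CTG(0) without and with Dox and of 10.19 and 9.72 in MIO-M1-CTG(648) (contrast A -0.47, adjusted p = 0.269). These values therefore give no check of the induction.

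p53 binds 2 half-sites of 10 bases each, and the RefSeq windows around gene starts (GRCh38.p14, 250 bases before to 50 after each start) were searched for 2 adjoining half-sites on both strands. A window was found for 8 of the 9 genes, 14 windows in all. The 3 genes whose best match had the fewest mismatches are shown, because 2 of them, MDM2 and AEN, are also genes that differed between the lines. Capitals mark the 20 bases of the matched site and lower case the 5 bases on either side.
MDM2: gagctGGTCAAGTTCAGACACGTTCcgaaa
AEN: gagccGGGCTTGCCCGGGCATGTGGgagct
SESN1: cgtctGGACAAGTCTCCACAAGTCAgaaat
The match of MDM2 lies at chr12:68808923-68808942 on the plus strand, with 2 mismatches, in the windows of its later start sites. The match of AEN lies at chr15:88621306-88621325 on the plus strand, also with 2 mismatches, and it includes an exact half-site. Of all 35116 windows, 0.649% held a match this close. The match of SESN1 lies at chr6:109009018-109009037 on the minus strand with 3 mismatches, a closeness found in 5.20% of windows, and it too includes one, as 6.63% of all windows do. In the other 5 genes with a window, CDKN1A, TP53I3, BAX, BBC3 and ZMAT3, the best match had 4 or 5 mismatches, and 70.5% of all windows held a match of at most 5. GADD45A has no entry among these windows. These are matches of letters and not measured binding.

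GADD45A, a small protein (gene at chromosome 1, 67685201 to 67688334, GRCh38.p14) that halts the cell cycle and activates stress kinases, separated the Dox-induced MIO-M1-CTG(648) cells from every other group. Its signal was 13.50, 13.53 and 13.65 in those cells, against 11.90, 12.16 and 12.09 in the same line without Dox. In MIO-M1-CTG(0) it was 12.02, 12.00 and 12.23 without Dox and 11.66, 11.97 and 11.63 with Dox. The 3 arrays with the induced repeat lay above all 9 others, and the next highest array of any group was more than 1 log2 unit lower. The other groups lay close together, with means of 12.08 ± 0.13 and 11.75 ± 0.19 (SD, n = 3) in MIO-M1-CTG(0) without and with Dox and 12.05 ± 0.13 (SD, n = 3) in non-induced MIO-M1-CTG(648).

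In contrast A, GADD45A rose by a log2 fold change of 1.51 (SE 0.15, 2.85-fold, adjusted p = 0.00023 in the limma fit), the 45th highest of 36176 probe sets. In MIO-M1-CTG(0) Dox moved it by -0.33, with no overlap between the groups but short of the threshold (unadjusted p = 0.0417, adjusted p = 0.574). The difference between these responses was 1.84 (SE 0.21, 95% confidence interval 1.39 to 2.29, adjusted p = 0.0018). Between the lines it was 1.81 higher in the Dox-induced MIO-M1-CTG(648) cells (3.50-fold, adjusted p = 3.46e-06), and -0.03 without Dox (95% confidence interval -0.35 to 0.28). GADD45A was thus called in contrasts A and B and would not be removed from either by the study's steps, which take out genes called with Dox in MIO-M1-CTG(0) from contrast A and genes called between non-induced lines from contrast B. All of these calls held without any 1 array. The study itself lists GADD45A as higher in both contrasts, but with smaller fold changes than those given here. The source of this gap was not tested.

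**Figure D1:**
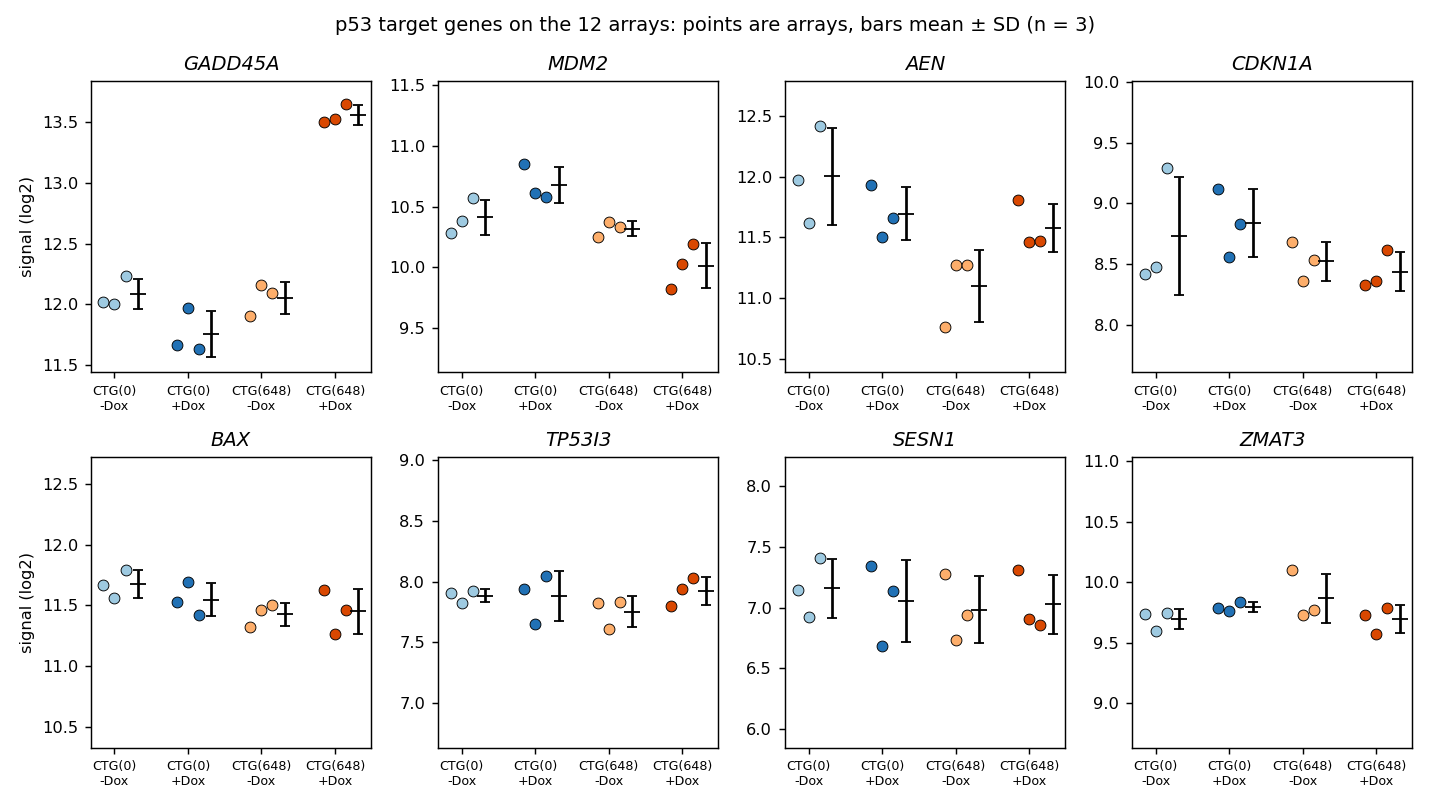
Log2 signal of the 8 measured p53 target genes on each of the 12 arrays, by group (lines with 0 or 648 repeats, without and with Dox), with the group mean and SD beside the points (n = 3). All panels span the same range of log2 units. GADD45A in the Dox-induced MIO-M1-CTG(648) cells, at 13.50 to 13.65, lies above all of its other arrays, whereas the groups of CDKN1A, SESN1 and TP53I3 overlap.

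Contrast A called no other gene of the 8. GADD45A alone is 1 of 8 genes, beside 2.42% of all probe sets called in contrast A (1.28% higher and 1.14% lower). The median log2 fold change of the 8 genes was 0.03 (range -0.30 to 1.51), beside a median of 0.01 over all probe sets. With Dox in MIO-M1-CTG(0) no gene of the 8 was called, either by limma or by the methods' t-test, and GADD45A was the 1 gene with an unadjusted p under 0.05 by limma. The share of all probe sets called there was 1.18% (0.58% higher and 0.6% lower). Their median there was -0.06, beside -0.01 over all probe sets.

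CDKN1A (chromosome 6, 36676463 to 36687332) encodes p21, the inhibitor of cyclin-dependent kinases through which p53 halts the cell cycle. Its signal was 8.68, 8.36 and 8.53 before and 8.33, 8.36 and 8.62 after Dox in MIO-M1-CTG(648). In MIO-M1-CTG(0) it was 8.42, 8.48 and 9.29 without Dox and 9.12, 8.56 and 8.83 with Dox. All groups overlapped, and the widest spread was in the non-induced MIO-M1-CTG(0) cells, where replicate 3 stood apart at 9.29. The log2 fold change in contrast A was -0.09, with a 95% confidence interval from -0.57 to 0.40 that reaches past the fold threshold on the low side only. In contrast B it was -0.40 (95% confidence interval -0.89 to 0.09, adjusted p = 0.311).

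MDM2 (chromosome 12, 68808172 to 68850686), the ligase that restrains p53, had log2 fold changes of opposite sign with Dox in the 2 lines, neither past the threshold. Its signal was 10.25, 10.37 and 10.33 in non-induced MIO-M1-CTG(648) and 9.82, 10.03 and 10.19 after Dox, so every Dox-induced array lay below every non-induced one. In MIO-M1-CTG(0) it was 10.28, 10.38 and 10.57 without Dox and 10.85, 10.61 and 10.58 with Dox, where every Dox-induced array lay above. The log2 fold changes were -0.30 (95% confidence interval -0.62 to 0.02) in contrast A and 0.27 (-0.05 to 0.59) in MIO-M1-CTG(0). The interaction of -0.57 had an unadjusted p of 0.0169 and an adjusted p of 0.336 in the limma fit.

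Between the Dox-induced lines MDM2 was lower in MIO-M1-CTG(648), by a log2 fold change of -0.67 (SE 0.15, 0.63-fold, adjusted p = 0.00869), with no overlap, whereas the non-induced lines differed by -0.09 and overlapped. The lowest Dox-induced MIO-M1-CTG(0) array was at 10.58 and the highest Dox-induced MIO-M1-CTG(648) array at 10.19. This call held without any 1 array, with log2 fold changes of -0.76 to -0.57, but not in the methods' t-test (unadjusted p = 0.00825). With GADD45A, 2 of the 8 genes were called in contrast B, 1 in each direction, beside 11.7% of all probe sets (6.35% higher and 5.34% lower). The median of the 8 genes was -0.10 in contrast B, beside 0.01 over all probe sets.

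MDM4, the relative of MDM2 that binds p53 and blocks its activity, was lower in the same comparison. Its 3 values were 9.88, 10.10 and 10.14 in Dox-induced MIO-M1-CTG(648) and 10.58, 10.59 and 10.68 in Dox-induced MIO-M1-CTG(0). The log2 fold change was -0.58 (adjusted p = 0.0209), and it ranged from -0.63 to -0.50 without 1 array, the call ending in 3 of the 12 such fits. Between the non-induced lines its log2 fold change was -0.32, short of the threshold (adjusted p = 0.213), and its change in contrast A was -0.19 (adjusted p = 0.718).

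AEN (chromosome 15, 88604683 to 88632281), an exonuclease that p53 induces and that promotes death of the cell, differed between the lines before any Dox was given. Its signal was 11.97, 11.62 and 12.42 in non-induced MIO-M1-CTG(0) and 10.76, 11.27 and 11.27 in non-induced MIO-M1-CTG(648), with no overlap. After Dox it was 11.93, 11.50 and 11.66 in MIO-M1-CTG(0) and 11.81, 11.46 and 11.47 in MIO-M1-CTG(648), where the groups overlapped. The lines differed by a log2 fold change of -0.90 without Dox (SE 0.22, 0.54-fold, adjusted p = 0.0139) and by -0.12 with Dox (adjusted p = 0.812).

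In contrast A, AEN had a log2 fold change of 0.48, just under the fold threshold, with no overlap (unadjusted p = 0.0464, adjusted p = 0.456). In MIO-M1-CTG(0) it was -0.31 (adjusted p = 0.759), and the interaction was 0.79 (95% confidence interval 0.12 to 1.45, adjusted p = 0.372). The call between the non-induced lines ended without replicate 3 of MIO-M1-CTG(0), at -0.70 (unadjusted p = 0.00707), and without replicate 1 of MIO-M1-CTG(648), at -0.73. The methods' t-test gave an unadjusted p of 0.0347. AEN was the 1 gene of the 8 called between the non-induced lines, beside 11.7% of all probe sets (5.63% higher and 6.11% lower), and the median of the 8 genes was -0.15 there, beside 0.00 over all probe sets.

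**Figure D2:**
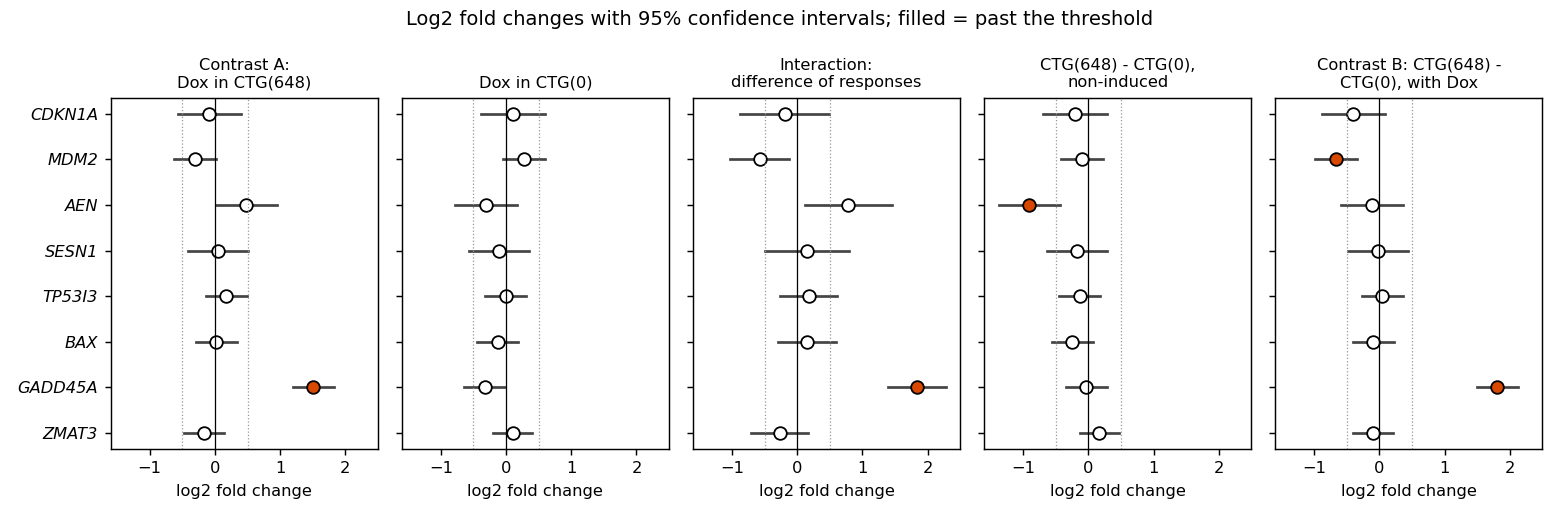
Log2 fold change of each of the 8 genes with its 95% confidence interval in the 5 contrasts, from the limma fit over 12 arrays. Filled points passed the threshold and dotted lines mark a log2 fold change of 0.5 in either direction. GADD45A stands apart in contrasts A and B and in the interaction, MDM2 is called lower in contrast B, and AEN is called lower between the non-induced lines.

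The last 4 genes did not pass the threshold in any of the 5 contrasts. BAX (chromosome 19, 48954875 to 48961798), which opens the outer membrane of mitochondria in apoptosis, was 11.32, 11.46 and 11.50 in non-induced and 11.63, 11.26 and 11.46 in Dox-induced MIO-M1-CTG(648), and 11.67, 11.56 and 11.79 and then 11.53, 11.69 and 11.42 in MIO-M1-CTG(0). Only its non-induced lines did not overlap, with a log2 fold change of -0.25 (adjusted p = 0.345). TP53I3 (chromosome 2, 24077433 to 24084834), an oxidoreductase first found as a gene induced by p53, was 7.82, 7.61 and 7.83 before and 7.80, 7.94 and 8.03 after Dox in MIO-M1-CTG(648), and 7.91, 7.82 and 7.92 before and 7.94, 7.65 and 8.05 after Dox in MIO-M1-CTG(0). These groups overlapped throughout. The changes in contrast A were 0.02 for BAX (95% confidence interval -0.29 to 0.34) and 0.17 for TP53I3 (-0.14 to 0.48), so for both genes a change as large as the fold threshold of 0.5 lay outside the interval.

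SESN1 (chromosome 6, 108984309 to 109094846), a sestrin that lowers mTORC1 activity under stress, was 7.28, 6.73 and 6.94 before and 7.31, 6.91 and 6.86 after Dox in MIO-M1-CTG(648), and 7.15, 6.92 and 7.41 before and 7.34, 6.68 and 7.14 after Dox in MIO-M1-CTG(0). ZMAT3 (chromosome 3, 179017223 to 179072513), a zinc finger protein that binds RNA, was 10.10, 9.73 and 9.77 before and 9.73, 9.57 and 9.79 after Dox in MIO-M1-CTG(648), and 9.74, 9.60 and 9.75 before and 9.79, 9.76 and 9.84 after Dox in MIO-M1-CTG(0). The groups of SESN1 overlapped in every comparison. For ZMAT3 the Dox-induced MIO-M1-CTG(0) arrays lay just above the non-induced ones, by a log2 fold change of 0.10. The changes in contrast A were 0.04 for SESN1 (95% confidence interval -0.42 to 0.50) and -0.17 for ZMAT3 (-0.48 to 0.14).

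How much of each gene's spread over the 12 arrays lay between groups differed widely. For GADD45A the arrays of a group accounted for 2.5% of the sum of squares, the interaction for 41.7%, the line for 38.7% and Dox for 17.1%. For MDM2 the line took 51.3% and the interaction 29.2%, and for AEN 40.3% and 24%. For SESN1, in contrast, 92.5% of the spread lay between arrays of the same group, and for CDKN1A 70.6%. The standard deviation over the 12 arrays was 0.74 for GADD45A and between 0.13 and 0.42 for the other 7 genes. In the interaction 1 gene of the 8 was called (GADD45A), beside 2.32% of all probe sets (1.1% higher and 1.22% lower), and the median interaction of the 8 genes was 0.15, beside 0.02 over all probe sets.

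**Figure D3:**
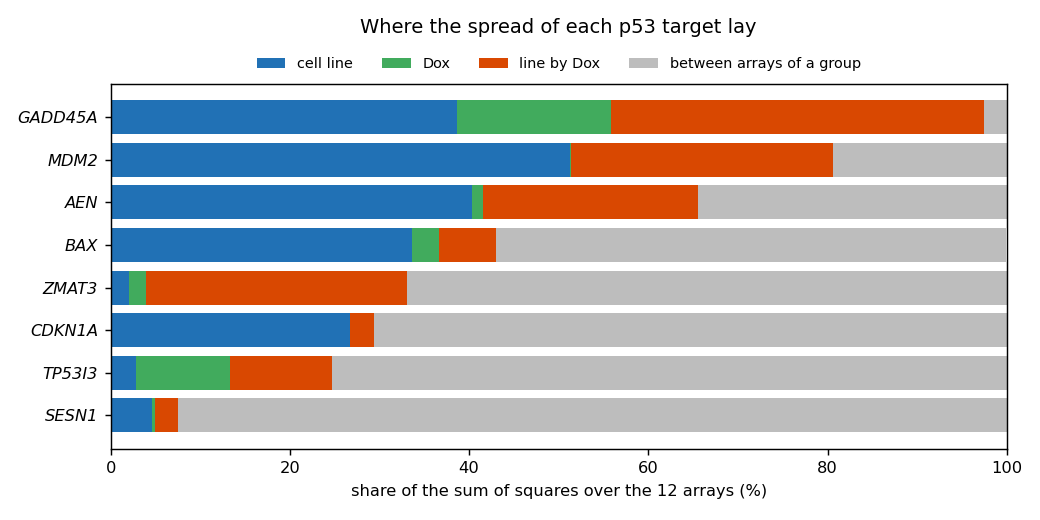
Share of each gene's sum of squares over the 12 arrays (%) that lay between the lines, between cells with and without Dox, in the line by Dox interaction, and between arrays of the same group. The share between arrays of the same group runs from 2.5% for GADD45A to 92.5% for SESN1.

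The probe sets whose values over the 12 arrays, each centred on its own mean, ran closest to those of GADD45A were PPP1R15A, HCP5 and SNAPC1, at root mean square distances of 0.21, 0.22 and 0.22 log2 units. PPP1R15A, also named GADD34, directs a phosphatase to the translation factor eIF2α and was found, like GADD45A, among genes induced by growth arrest and DNA damage. In MIO-M1-CTG(648) it was 12.76, 12.55 and 12.59 with Dox and 11.35, 11.50 and 11.63 without, a log2 fold change of 1.14. HCP5, a long non-coding RNA of the MHC region, was 8.95, 8.96 and 8.95 against 7.69, 7.95 and 7.58. SNAPC1, part of the factor that starts transcription of small nuclear RNAs, was 11.92, 11.86 and 11.84 against 10.21, 10.21 and 10.10. These genes were chosen for this likeness, which is therefore a description with no test.

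Of the relatives of GADD45A, GADD45B was 11.06, 11.44 and 11.58 in Dox-induced MIO-M1-CTG(648) and 10.36, 10.49 and 10.80 in Dox-induced MIO-M1-CTG(0), a log2 fold change of 0.81 in contrast B (adjusted p = 0.0132) whose call ended in 2 of the 12 fits that left out 1 array. In contrast A it was 0.31 (adjusted p = 0.614), where the groups overlapped. GADD45G, the other relative, had group means of 3.55 to 3.68 and was dim throughout. SESN3, a relative of SESN1, was called higher in MIO-M1-CTG(648), by 1.64 between the non-induced lines and by 1.13 in contrast B. These are values of the brighter of its 2 probe sets, and the call in contrast B ended when the 2 were averaged.

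**Figure D4:**
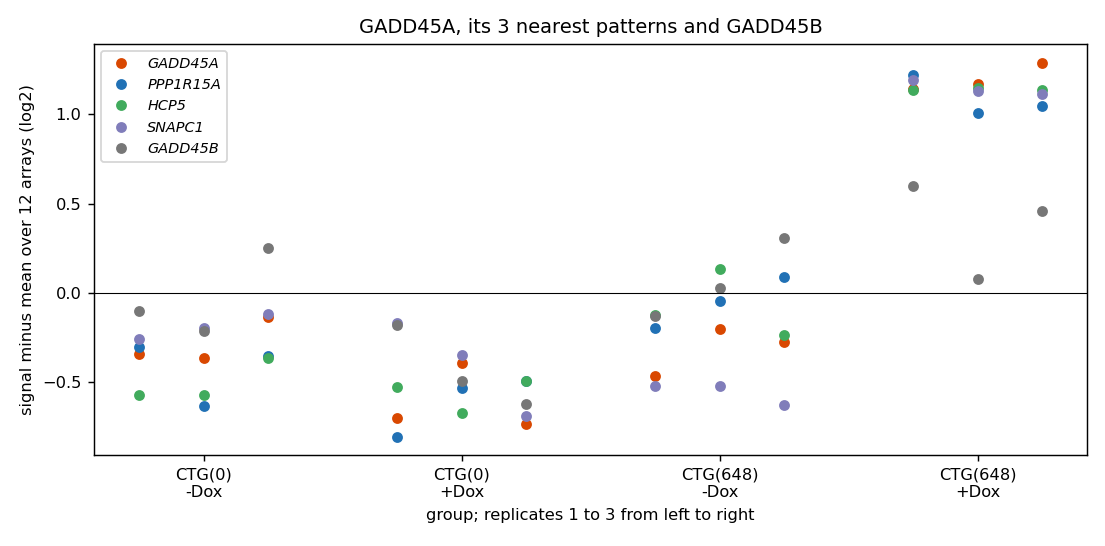
Log2 signal minus the gene's own mean over the 12 arrays, for GADD45A, its 3 nearest probe sets and GADD45B, with 1 point per array. GADD45A, PPP1R15A, HCP5 and SNAPC1 lie 1.01 to 1.29 above their means on the 3 Dox-induced MIO-M1-CTG(648) arrays, and GADD45B lies 0.08 to 0.60 above.

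Other textbook targets of p53 were listed by role, and 34 of 38 were measured. In contrast A 3 of them were called higher and 1 lower, beside 1.28% and 1.14% of all probe sets, and their median log2 fold change was 0.05, beside 0.01 over all probe sets. PMAIP1, which encodes the death-promoting protein NOXA, was 8.83, 9.03 and 9.47 in non-induced and 9.92, 9.99 and 10.06 in Dox-induced MIO-M1-CTG(648). It rose by 0.88 (SE 0.17, adjusted p = 0.0367), and before Dox it had been lower than in MIO-M1-CTG(0), with a log2 fold change of -1.31 (adjusted p = 0.000217). With Dox it was still lower, with -0.58 in contrast B and no overlap, just short of the threshold (unadjusted p = 0.00519, adjusted p = 0.0429). Its interaction of 0.72 was not called (adjusted p = 0.293). The methods' t-test did not call the rise. RPRM, the gene of Reprimo, a protein that holds cells before mitosis, moved the other way.

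RPRM was 8.04, 8.06 and 8.26 in non-induced and 6.83, 7.16 and 7.31 in Dox-induced MIO-M1-CTG(648), and 5.22, 5.62 and 5.92 and then 6.13, 6.18 and 6.25 in MIO-M1-CTG(0). The line with the repeat thus started 2.53 higher (adjusted p = 1.07e-06) and fell by 1.02 with Dox (log2 fold change -1.02, adjusted p = 0.0228), whereas the change of 0.60 in MIO-M1-CTG(0) was short of the threshold (unadjusted p = 0.00633). The interaction was -1.62 (adjusted p = 0.015). These calls of PMAIP1 and RPRM held without any 1 array.

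The other calls of contrast A were weaker. DDB2, which recognises DNA lesions, rose by 0.58 (adjusted p = 0.179), and SESN2, a sestrin, by 0.65 (adjusted p = 0.186). The call of DDB2 ended in 10 of the 12 fits that left out 1 array, with values of 0.54 to 0.64, and that of SESN2 in 8, with 0.56 to 0.72. Of the 13 targets listed under apoptosis, 12 had a log2 fold change above 0 in contrast A, and their median was 0.18. Only 1 was called, beside 2.42% of all probe sets. The death receptor FAS had 0.60 (adjusted p = 0.25) and TNFRSF10B had 0.40 (adjusted p = 0.356), and neither was called; both were picked after their values were seen. With Dox in MIO-M1-CTG(0) limma and the methods' t-test called 0 of the 34 targets, while 5 reached an unadjusted p below 0.05 by limma.

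**Figure D5:**
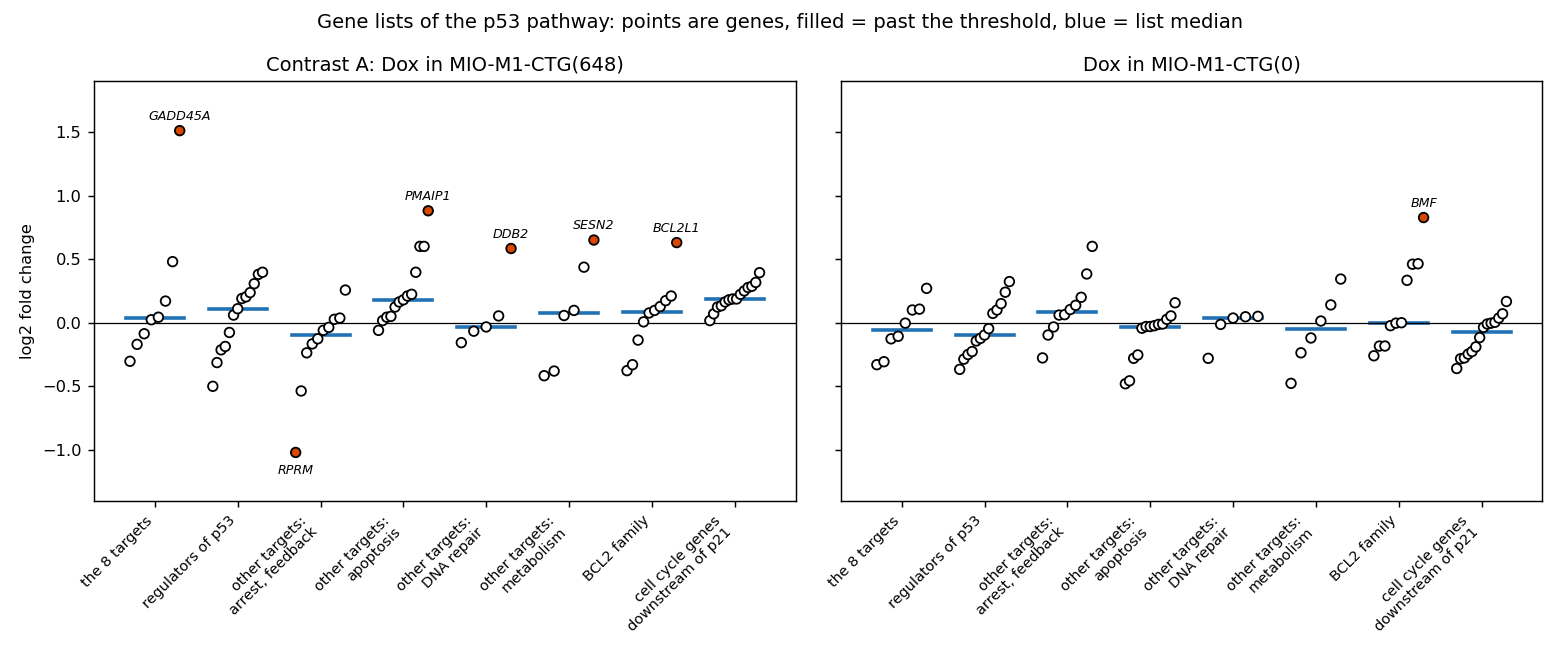
Log2 fold change with Dox of each gene in 8 lists of the p53 pathway, in MIO-M1-CTG(648) (contrast A) and in MIO-M1-CTG(0). Filled points passed the threshold and blue lines are list medians. In contrast A GADD45A, PMAIP1, DDB2, SESN2 and BCL2L1 are called higher and RPRM lower, and in MIO-M1-CTG(0) BMF is called higher.

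Between the non-induced lines 4 of the 34 other targets were called higher and 6 lower in MIO-M1-CTG(648), beside 5.63% and 6.11% of all probe sets, 15 of the 34 had a log2 fold change above 0, and their median was -0.15. Those called higher were RPRM, the DNA lesion sensor XPC (log2 fold change 1.11), RPS27L (0.97) and TRIM22 (0.89). Those called lower were PMAIP1, DRAM1 (-0.76), the polymerase POLH (-0.69), the death receptor TNFRSF10A (-0.67), TRIAP1 (-0.65) and APAF1 (-0.65), the scaffold of the apoptosome. Of these, the calls of DRAM1, TNFRSF10A, TRIAP1 and APAF1 each ended in 1 to 5 of the 12 fits that left out 1 array. In contrast B 4 were called higher (RPRM, EDA2R, XPC and RPS27L) and 1 lower (APAF1), beside 6.35% and 5.34% of all probe sets. There 21 of the 34 were above 0, with a median of 0.07. The calls of EDA2R, RPS27L and APAF1 in contrast B ended in 2 to 4 of those fits.

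Of 13 measured regulators of p53, none was called in contrast A, where 3 had an unadjusted p under 0.05, or with Dox in MIO-M1-CTG(0), where none had. Between the non-induced lines ATM, the kinase that answers double-strand breaks, was higher by 1.37 (adjusted p = 0.000189), TP53BP1 was higher by 0.69, and RCHY1, a ligase for p53, had -0.63. The calls of TP53BP1 and RCHY1 ended in 2 and 4 of the 12 fits that left out 1 array. In contrast B CHEK1 (0.61) and ATM (0.73) were called higher and MDM4 lower, and each of these 3 calls ended in 3 of those fits. Both comparisons of the lines called 11.7% of all probe sets.

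In the BCL2 family, which sets the threshold of apoptosis and to which BAX belongs, all 10 listed genes were measured. BCL2L1, whose main product BCL-xL opposes BAX, was 11.17, 11.54 and 11.66 in non-induced and 11.93, 12.10 and 12.23 in Dox-induced MIO-M1-CTG(648). It rose by 0.63 in contrast A (adjusted p = 0.122), was 0.96 higher in contrast B (adjusted p = 0.00138), and was the 1 member of the family called in each. Its call in contrast A ended in 3 of the 12 fits that left out 1 array, with values of 0.49 to 0.73. Over all probe sets 2.42% were called in contrast A and 11.7% in contrast B.

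BMF, which binds and disables such protectors, was 6.24, 6.37 and 6.58 in non-induced and 6.91, 7.36 and 7.40 in Dox-induced MIO-M1-CTG(0), and 7.47, 7.66 and 8.06 and then 7.07, 7.46 and 7.53 in MIO-M1-CTG(648). It rose by 0.83 with Dox in MIO-M1-CTG(0) (adjusted p = 0.34, a call that ended in 3 of those fits) and had -0.38 in contrast A (adjusted p = 0.537). The interaction was -1.20 (adjusted p = 0.105).

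Among 14 genes of DNA replication and mitosis that p21 is known to lower through the DREAM repressor, none was called in contrast A, where 1 had an unadjusted p under 0.05. All 14 had a log2 fold change above 0 there (0.02 to 0.39), with a median of 0.19 beside 0.01 over all probe sets. With Dox in MIO-M1-CTG(0) 4 of the 14 were above 0, none was called or had an unadjusted p under 0.05, and the median was -0.08. Without Dox AURKB (-0.92) and CDC20 (-0.59) were called lower in MIO-M1-CTG(648), and the call of CDC20 ended in 10 of the 12 fits that left out 1 array. In contrast B CCNB1 (0.78), BUB1 (0.62) and AURKA (0.56) were called higher and AURKB (-0.66) lower, and of these the call of AURKB alone held without any 1 array. The share of all probe sets called was 11.7% in each of these comparisons of the lines.

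Of the 5 measured CDK inhibitors related to CDKN1A none was called in contrast A, where none had an unadjusted p under 0.05, or with Dox in MIO-M1-CTG(0), where 1 had. CDKN1B, which encodes p27, separated the lines, with group means of 4.93 and 4.42 in MIO-M1-CTG(0) and 8.30 and 8.30 in MIO-M1-CTG(648), without and with Dox. Its log2 fold change was 3.37 between the non-induced lines and 3.88 in contrast B.

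Markers of fibroblasts also shifted with Dox in MIO-M1-CTG(648). All 7 measured had a log2 fold change below 0 in contrast A, 5 with an unadjusted p under 0.05, and the list median was -0.997, beside 0.01 over all probe sets. PDGFRA (-1.05), COL1A1 and PDGFRB (-0.90) were called lower, and DCN (-1.38) and LUM (-1.08) were not past the threshold. The call of COL1A1 was lost at an adjusted p under 0.05 and in the methods' t-test. None of the 7 was called with Dox in MIO-M1-CTG(0), where 1 had an unadjusted p under 0.05. Their summed signal, on the log2 scale, was 18.34 to 18.59 in non-induced and 18.10 to 18.21 in Dox-induced MIO-M1-CTG(648), and 18.12 to 18.34 and 18.28 to 18.41 in MIO-M1-CTG(0), and no marker had a group mean under 5. COL1A2, the brightest, weighs most in this sum, with group means of 18.08 without and 17.81 with Dox in MIO-M1-CTG(648). Without Dox LUM (-7.04) and PDGFRB (-0.67) were called lower and PDGFRA (2.04) higher in MIO-M1-CTG(648). In contrast B LUM (-8.41), DCN (-2.47), PDGFRB (-2.07) and COL1A1 (-1.6) were called lower and PDGFRA (0.96) higher. Over all probe sets 2.42% were called in contrast A and 11.7% in each comparison of the lines. Of 4 macrophage and microglia markers, PTPRC was called lower between the non-induced lines (-0.83, a call that ended in 7 of the 12 fits that left out 1 array) and CSF1R in contrast B (-0.80), and none was called in contrast A, where none had an unadjusted p under 0.05. The part of these differences in the p53 target values was not tested.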

How the data were processed

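Total RNA of the 12 samples was hybridised to Clariom D Human arrays. The authors deposited log2 signals, rounded to 2 decimals, after RMA background correction and quantile normalization. The submitters' notes name RMA and hg38 without versions. The values were used unchanged. Of 135750 probe sets, 36176 carry 1 gene symbol, 1119 several and 98455 none, and those with 1 symbol were tested. With 3 arrays in each group, the number of arrays limits the precision.

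All 4 groups entered 1 fit with limma 3.58.1 (R 4.3.3; lmFit, contrasts.fit, eBayes; 8 residual and 5.11 prior degrees of freedom), tested on simulated data beforehand. The threshold was a log2 fold change beyond 0.5 in either direction with an unadjusted p below 0.005. Counts of genes above or below 0, or with an unadjusted p under 0.05, have no share over all probe sets beside them. A gene with several probe sets was read from its brightest. The methods' t-test is the unpaired test with equal variances at the same threshold. Alternatives changed the threshold, variance model, array weights, arrays in the fit, normalization, filter, features tested and replicate block, and left out each array.

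Of the 9 genes of the main list, the 8 that were measured are given on every array. Of each list of p53 regulators, other targets, relatives, cell cycle genes and cell type markers, up to 4 genes past the threshold with the smallest p were named in each contrast, with MDM4 and DMPK always. The nearest patterns are the 3 probe sets closest to a target whose group means differ by at least 1 log2 unit. The genes and lists were chosen with earlier results of these data known. Gene positions and promoter windows are those of RefSeq (GRCh38.p14).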

Additional observations from a re-analysis of the deposited data

Results flagged for a closer look

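Of the 36176 probe sets 838 were called in the interaction, the test of the difference between the Dox responses in the limma fit, and 9 of the genes named here were among them. GADD45A had a difference of 1.84, from 1.51 in the line with the repeat and -0.33 in the line without it. RPRM had -1.62, from -1.02 and 0.60. DMPK had -1.06, from -0.47 and 0.59 (adjusted p = 0.0688), on probes whose reach over the minigene the files do not show. BMF had -1.20, from -0.38 and 0.83, and BCL2L11, which encodes the death-promoting protein BIM, had -0.79, from -0.33 and 0.46 (adjusted p = 0.141). BCL2L1 had 0.81, from 0.63 and -0.18 (adjusted p = 0.182). The fibroblast markers PDGFRB, PDGFRA and COL1A1 had -1.4 (adjusted p = 0.0135), -1.08 (adjusted p = 0.0861) and -1.13 (adjusted p = 0.158). GADD45A, RPRM and PDGFRB also passed an adjusted p of 0.05. The calls of BCL2L1, BCL2L11 and COL1A1 ended in 8, 2 and 6 of the 12 fits that left out 1 array, with differences of 0.67 to 0.92, -0.87 to -0.70 and -1.29 to -0.92.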

How the results depend on the processing

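Under the alternatives no log2 fold change of a p53 target reversed its call. Of the counts of targets called, 112 stayed within 1.5 times and 6 moved. Of the log2 fold changes of targets, 938 kept their side of the threshold and 6 lost their call. Between the non-induced lines the count of 1 became 0 at a log2 fold change over 1 and in the methods' t-test, and ranged from 0 to 1 when single arrays were left out. In contrast B the count of 2 became 1 at a log2 fold change over 1 and in the methods' t-test, the remaining call being GADD45A. With the replicate number as a block the counts were 1 in contrast A, 0 with Dox in MIO-M1-CTG(0), 1 between non-induced lines, 2 in contrast B and 1 in the interaction, all as without it. Arrays of the same number showed no common deviation, since their deviations from the group means correlated between -0.08 and 0.07. Nothing says whether their cultures shared a date or handling. Over all probe sets the threshold called 876 in contrast A, 427 with Dox in MIO-M1-CTG(0), 4247 between non-induced lines, 4227 in contrast B and 838 in the interaction. At an adjusted p under 0.05 these were 235, 6, 4515, 4454 and 170, and at a log2 fold change over 1 they were 240, 56, 1600, 1555 and 512. The methods' t-test called 409, 127, 2105 and 2454 in the first 4. Fitting all 135750 probe sets called 1565 in contrast A, 1137 with Dox in MIO-M1-CTG(0) and 1381 in the interaction. The methods' t-test and the fit of the compared groups alone give no interaction.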

Other observations

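Replicate 3 of the non-induced MIO-M1-CTG(0) cells held the highest signal of its group for all 8 measured p53 target genes, a pattern noticed after the values were seen. Over all probe sets, 44.5% were highest on that array of the group, and 56% of those with a mean of at least 5. The 8 genes lay 0.22 above their group means there on average, beside a median of 0.04 over all probe sets. Replicate 2 of the group held the lowest signal for 6 of the 8 genes, and for 37.2% of all probe sets.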
